A study of Mus musculus with 6 samples.

Results

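Rab GTPases are the small GTP-binding proteins that give each membrane compartment its identity, and 59 genes of this family were measured here out of 18193 genes in all. Members were the genes whose platform symbol is Rab followed by a number, at most 1 letter and 1 further digit, each read through its brightest probe set, by the mean of all 6 arrays. The 59 genes are covered by 132 probe sets, and 38 of them had more than 1 to choose from. Bone marrow cells of healthy C57BL/6 mice were transfected with a miR-142-3p mimic (3 arrays) or with a control oligonucleotide (3 arrays), with the same transfection reagent and a stated 100 nM. Cells of both groups received GM-CSF and IL-6 after 5 h and were cultured for 4 days to obtain myeloid-derived suppressor cells (MDSCs), which are immature and dampen T cell responses. Total RNA was hybridised to Affymetrix MOE430 2.0 arrays. The labels name no sort of the cells, no age of the mice, and no separate animals or cultures behind the arrays of a group, so p-values here reflect only how far these samples scatter, and that scatter may be technical. In RNA from a mixed culture, fewer cells of a type and less RNA per cell cannot be told apart.

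A Rab protein carries lipid tails that anchor it in a membrane, and it acts there while it holds GTP. Exchange factors load the GTP, GTPase-activating proteins end the active state, and a shared GDP-dissociation inhibitor takes the protein off the membrane again. In its active state each Rab recruits its own effectors, such as tethers, motor adaptors and lipid kinases. In phagocytes Rab proteins order the ripening of the phagosome and the release of granules.

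The transfected agent is a copy of a microRNA that is abundant in blood cells. Its mature sequence is shown because it is what differs between the groups, with the seed (bases 2 to 8) in capitals, as RefSeq gives it for GRCm38.p6 at chr11:87756903-87756925 on the plus strand.
mmu-miR-142a-3p: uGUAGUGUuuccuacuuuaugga
No other mature mouse microRNA in the RefSeq table carried this seed. The probe sets of these arrays do not measure the mimic itself, and seed sites in the Rab transcripts were not examined here.

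The question asked of the arrays was which Rab genes change under added miR-142-3p during MDSC culture. None of the 59 passed the test: 0 rose and 0 fell at an adjusted p of 0.05 (limma, Benjamini-Hochberg over all 18193 genes), where 2.76% of all genes did, 213 of them higher and 290 lower. A further quantile normalisation turned that split to 322 higher and 290 lower. Under other settings the number of Rab genes that passed ran from 0 to 4. It was 0 with any 1 array left out, where 0%, 0.357% and 0% of all genes passed without mimic arrays 1, 2 and 3, and 1.96%, 0% and 2.27% without control arrays 1, 2 and 3. It was 0 with a replicate block (1.73% of all genes) and 0 with all probe sets fitted (1.62%). It was 1 with probe sets averaged (2.62%), 1 without genes below a mean log2 of 3 (9.24%) and 2 without genes below 5 (15.7%). A trended robust variance gave 2 (4.12%), array weights 4 (5.75%), centred arrays 1 (3.08%) and quantile normalisation 3 (3.36%). At an unadjusted p under 0.05 there were 16 Rab genes, or 27.1%, against 17% of all genes. Among genes whose mean log2 was at least 5 the order was the other way, with 6 of 27 Rab genes, or 22.2%, against 29.7% of all such genes. The fold changes were small in both directions. Log2 fold changes (mimic minus control) ran from -0.52 for Rab34 to 0.90 for Rab27b, with a median of 0.01, as over all genes, and 33 members had a higher and 26 a lower mean with the mimic. The 95% interval lay within 0.5 of 0 on the log2 scale for 40 of the 59 and within 1 of 0 for 56. The median SE was 0.11, close to the 0.12 of all genes. The members described one by one are the 8 with the largest differences at a level of at least 5, the 6 with the highest levels, and Rab32 with Rab38; any other member was named after its values were seen.

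Levels are deposited log2 values. A level of 5 lies at the 77.5th percentile of the gene means, and values below 1 sit near the floor of the arrays. By this scale 27 Rab genes had a mean of at least 5 (45.8%, against 22.5% of all genes), 10 lay between 3 and 5, 10 between 1 and 3, and 12 below 1 (20.3%, against 37.2% of all genes). Probe sets bind with unequal strength, so the order of levels between genes is only that of their signals. The 3 mimic arrays lay wholly outside the range of the 3 control arrays in 19 members (32.2%, 14 higher and 5 lower), where 22.2% of all genes did so (11% higher and 11.1% lower). Among genes with a mean of at least 5 the groups were apart in 9 of 27 Rab genes, or 33.3%, and in 41.3% of all such genes.

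**Figure D1:**
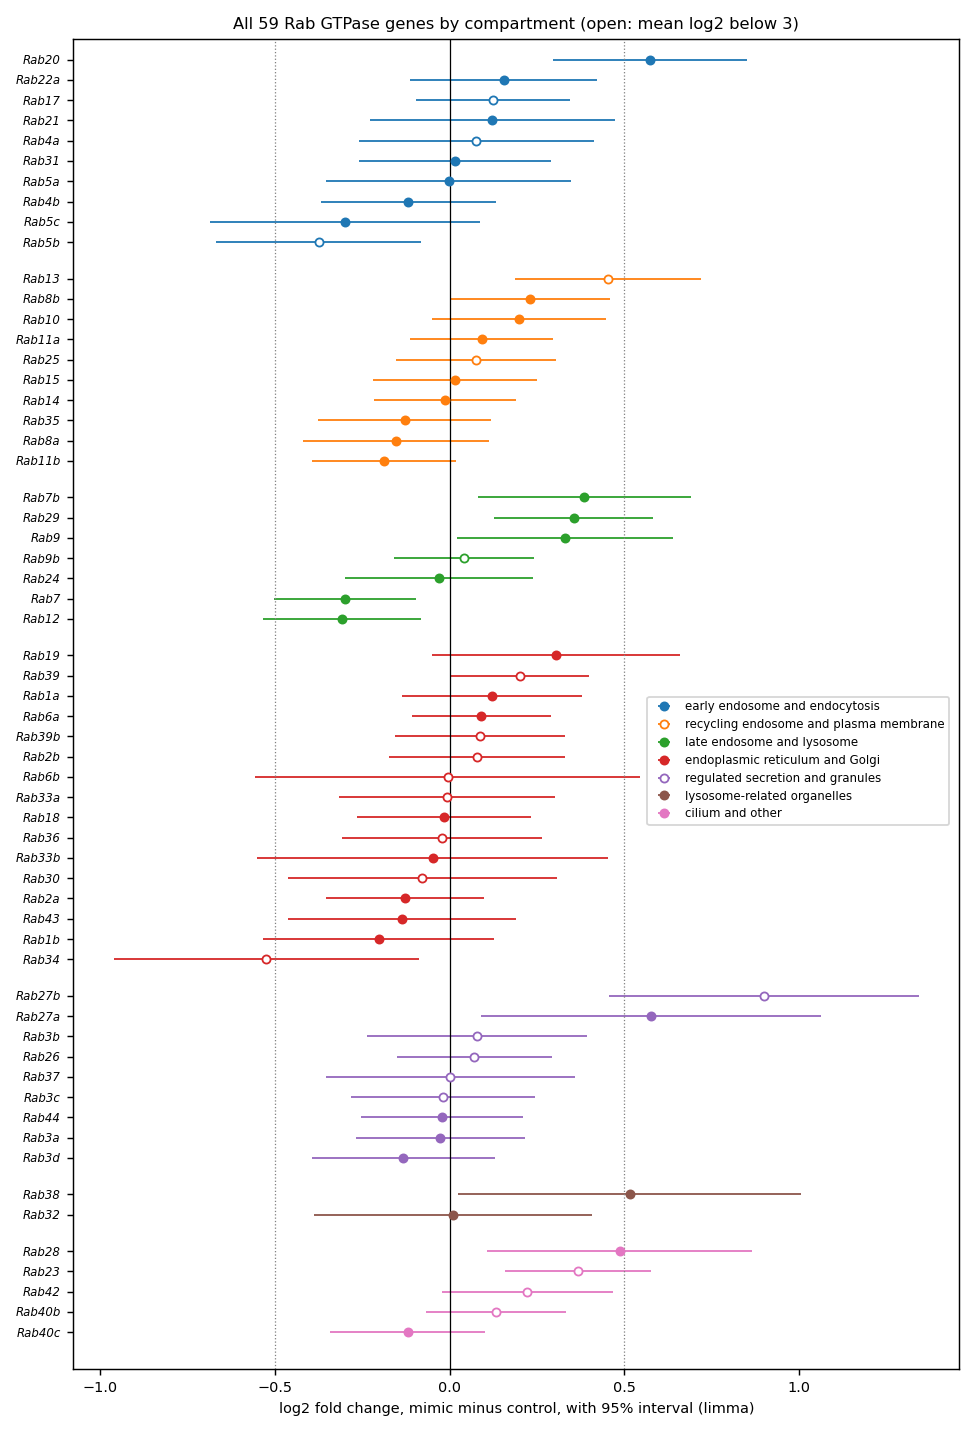
Log2 fold change (mimic minus control, x axis) of each of the 59 Rab GTPase genes with its 95% interval from limma (3 arrays per group), grouped by the compartment they are known for and sorted within it. Open circles mark genes with a mean log2 below 3, and dotted lines mark 0.5 in either direction. Intervals of 40 genes lie between the dotted lines, and Rab27b, at 0.90, lies farthest from 0.

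Rab genes of the early endosome were led in size of change by Rab20, whose product acts in phagosome maturation in macrophages. Rab20 (Entrez gene 19332) read 3.57, 3.49 and 3.85 on mimic arrays 1, 2 and 3, against 2.95, 3.12 and 3.12 on control arrays 1, 2 and 3. All mimic arrays lay above all control arrays. It missed the threshold at 1.49-fold (0.57 ± 0.12 SE on the log2 scale, adjusted p = 0.0524 by limma). It was singled out after its values were seen, since its higher mean is below the level of 5 asked of a gene named for its change. Rab20 passed when genes with a mean log2 below 3 were left out (adjusted p = 0.0271 by limma), with array weights and after quantile normalisation. It also passed when genes were read as the mean of their probe sets. Rab20 has only 1 probe set, so that setting left its own values unchanged. The other 9 members had log2 fold changes from -0.37 to 0.15. They include the core early endosome gene Rab5a, which stood at 6.80 ± 0.22 in mimic arrays and 6.80 ± 0.22 in control arrays (SD, n = 3), with a log2 fold change of -0.003 and a 95% interval from -0.35 to 0.35.

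The lowest fold changes of this compartment belonged to Rab5 isoforms. Rab5c read 4.84, 5.09 and 4.84 on the mimic arrays and 4.88, 5.50 and 5.29 on the control arrays. The groups overlapped, because control array 1 lay among the mimic arrays, and the difference did not pass (log2 difference -0.30 ± 0.17, adjusted p = 0.426 by limma). Rab5b was near the floor, at 0.66 ± 0.14 in mimic arrays and 1.04 ± 0.18 in control arrays. Rab31 and Rab21, which act in traffic between the Golgi, the surface and early endosomes, had log2 fold changes of 0.01 and 0.12.

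Recycling Rabs bring internalised receptors back to the surface. Rab8b (Entrez gene 235442), of a pair that drives exocytosis, read 7.34, 7.45 and 7.32 on the mimic arrays, against 7.01, 7.22 and 7.18 on the control arrays. The groups were apart, by a log2 fold change of 0.23 ± 0.10 that did not pass (adjusted p = 0.288 by limma). Its paralogue Rab8a had a fold change of the other sign, -0.15 ± 0.11, with overlapping groups. The slow recycling pair also had opposite signs, at 0.09 ± 0.09 for Rab11a and -0.19 ± 0.09 for Rab11b, and in each of these the groups were apart. For Rab11a the margin was narrow (lowest mimic array 7.129, highest control array 7.124), and the groups of its dimmer probe set overlapped. The difference between paralogues was not tested.

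Rab14, which works between the Golgi and endosomes and on phagosomes, was among the most even of the bright members by its brightest probe set. It read 7.66, 7.71 and 7.64 on the mimic arrays and 7.62, 7.76 and 7.67 on the control arrays, with a 95% interval of the log2 fold change from -0.22 to 0.19. Its dimmer probe sets at a level of at least 5 had log2 differences of -0.16 ± 0.12, -0.33 ± 0.11 (groups apart) and -1.04 ± 0.41. Rab10, which carries receptors to the plasma membrane, had a log2 fold change of 0.20 ± 0.11 with overlapping groups. Rab13, known from epithelial junctions, was dim, at 2.40, 2.39 and 2.41 on the mimic arrays against 1.76, 1.93 and 2.15 on the control arrays (log2 difference 0.45 ± 0.12, adjusted p = 0.0925 by limma). It passed after quantile normalisation (adjusted p = 0.0487), a case noticed after its values were seen.

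In late endosome and lysosome Rabs the groups were apart in 5 of 7 members, 3 higher and 2 lower, where 22.2% of all genes and 41.3% of those at a level of at least 5 were apart; 4 of the 7 lie at that level. The median size of the log2 fold change was 0.31 in either direction. Rab7 (Entrez gene 19349), the gene of the protein that takes late endosomes to lysosomes, was the member with the second highest signal. It read 8.46, 8.51 and 8.41 on the mimic arrays, against 8.82, 8.74 and 8.72 on the control arrays. Every mimic array was lower than every control array, by 1.23-fold in the means (log2 difference -0.30 ± 0.09, adjusted p = 0.129 by limma). Its other probe set had the same sign and also kept the groups apart, at 6.71, 6.64 and 6.94 on the mimic arrays against 7.68, 7.31 and 7.05 on the control arrays (log2 difference -0.58 ± 0.17). Rab7 passed downward when only genes whose mean log2 was at least 5 were tested (adjusted p = 0.0351) and with a trended robust variance (adjusted p = 0.0493).

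The remaining late endosome members that stood apart were mostly higher with the mimic. Rab29, formerly Rab7l1, is a Golgi and lysosome Rab tied to the kinase LRRK2. It read 5.97, 5.87 and 5.79 on the mimic arrays and 5.43, 5.52 and 5.62 on the control arrays, and did not pass (log2 difference 0.36 ± 0.10, adjusted p = 0.115 by limma; adjusted p = 0.0343 with only genes of at least 5 tested). Rab9, which returns mannose 6-phosphate receptors to the Golgi, read 6.02, 6.15 and 5.80 on the mimic arrays and 5.45, 5.75 and 5.77 on the control arrays (log2 difference 0.33 ± 0.13, adjusted p = 0.258). Its lowest mimic array and highest control array differed by little.

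Rab7b, a gene distinct from Rab7 whose human product acts on endosomal Toll-like receptors, was singled out after its values were seen. It read 4.21, 3.94 and 4.08 on the mimic arrays against 3.48, 3.69 and 3.90 on the control arrays, a log2 fold change of 0.39 ± 0.13 and so of the opposite sign to that of Rab7 (adjusted p = 0.183 by limma). Its dimmer probe set had a log2 fold change of 0.06 ± 0.14. Rab12, which sends transferrin receptor to degradation, had a lower mean, at 3.00 ± 0.09 in mimic arrays and 3.31 ± 0.09 in control arrays. Rab24, linked to autophagy, stood at 5.98 ± 0.11 and 6.01 ± 0.16 in the same groups.

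**Figure D2:**
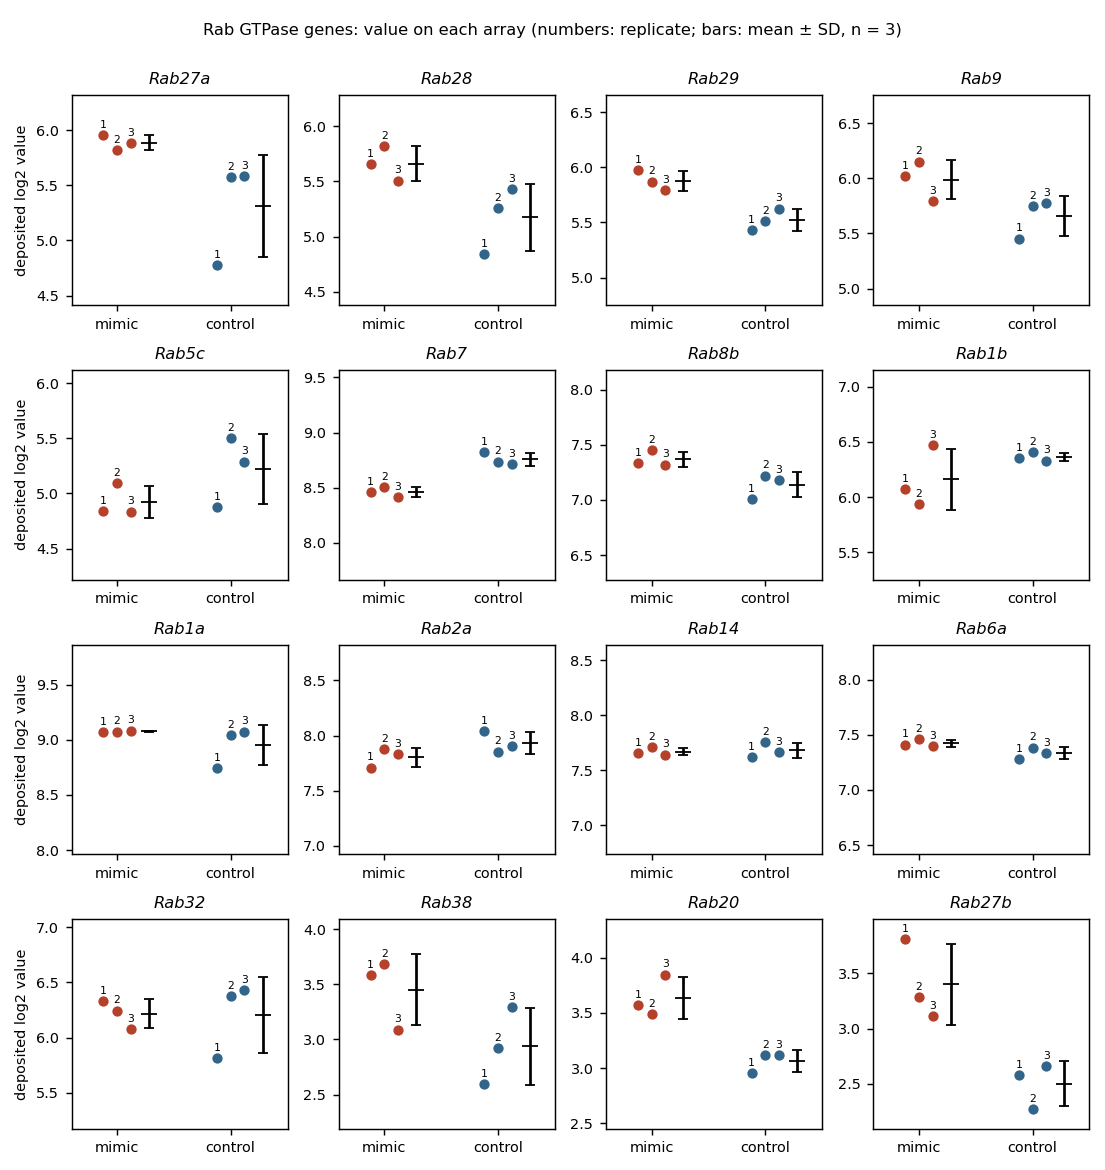
Deposited log2 value (y axis, each panel spanning the same range) of 16 Rab GTPase genes on the 3 mimic arrays (red) and the 3 control arrays (blue), numbered by replicate, with mean ± SD beside them. Rab7 is lower on every mimic array than on any control array. The reverse holds for Rab6a, Rab8b, Rab9, Rab20, Rab27a, Rab27b, Rab28 and Rab29. Control array 1 is the lowest of the 6 arrays for Rab1a, Rab6a, Rab8b, Rab9, Rab14, Rab20, Rab27a, Rab28, Rab29, Rab32 and Rab38.

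Rabs of the endoplasmic reticulum and Golgi run the early secretory pathway. Of 16 members 0 passed (limma; 2 at an unadjusted p under 0.05), the median size of the log2 fold change was 0.09 in either direction, and the groups were apart in 2 (12.5%, against 22.2% of all genes). Rab1a, the gene for transport from the endoplasmic reticulum to the Golgi, had the highest signal of the family. It read 9.07, 9.07 and 9.08 on the mimic arrays and 8.74, 9.05 and 9.07 on the control arrays. Control array 1 was low, and the other control arrays were level with the mimic arrays. The log2 fold change was 0.12 ± 0.11, and 0.02 without that array.

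Rab2a, a Golgi Rab, read 7.71, 7.88 and 7.83 on the mimic arrays and 8.04, 7.85 and 7.90 on the control arrays (log2 difference -0.13 ± 0.10). Rab6a, which directs traffic back through the Golgi, read 7.41, 7.46 and 7.40 against 7.28, 7.38 and 7.34 on the control arrays (log2 difference 0.09 ± 0.09). Intervals of both exclude a change of 0.5 for these probe sets, the brightest of each gene. Dimmer probe sets with a mean log2 of at least 3 had log2 differences of 0.15 ± 0.16 and 0.14 ± 0.11 for Rab2a. For Rab6a they were -0.73 ± 0.52 and -0.14 ± 0.51. Rab1b read 6.07, 5.93 and 6.47 on the mimic arrays and 6.35, 6.40 and 6.33 on the control arrays, and mimic array 3 lay above every control array while the other mimic arrays lay below them (log2 difference -0.20 ± 0.14, adjusted p = 0.544 by limma). The lowest value of the family, -0.52 ± 0.19 for Rab34, came from a dim gene with overlapping groups, at 1.19 ± 0.32 in mimic arrays and 1.72 ± 0.26 in control arrays.

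Rabs of regulated secretion dock granules at the surface, and both Rab27 genes had higher means with the mimic. Rab27b (Entrez gene 80718), known from the granules of platelets and mast cells, was singled out after its values were seen. It read 3.81, 3.28 and 3.11 on the mimic arrays, against 2.57, 2.27 and 2.66 on the control arrays. The groups were apart, with mimic array 1 the highest, and the threshold was missed at 1.87-fold (0.90 ± 0.19 on the log2 scale, adjusted p = 0.0556 by limma). It passed with a trended robust variance (adjusted p = 0.0341), with array weights, with arrays centred on their medians and after quantile normalisation. With all its probe sets averaged the log2 fold change was 0.54 and did not pass (adjusted p = 0.0679).

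Rab27a (Entrez gene 11891), the gene mutated in ashen mice, whose product docks granules in neutrophils and cytotoxic cells, had the largest fold change among members with a level of at least 5. It read 5.96, 5.82 and 5.88 on the mimic arrays and 4.78, 5.57 and 5.58 on the control arrays. The mimic arrays were close together and above all controls, and control array 1 stood far below the rest. The difference of 1.49-fold did not pass (log2 difference 0.58 ± 0.21, adjusted p = 0.214 by limma) and was 0.31 on the log2 scale without control array 1. Its 3 dimmer probe sets all had means below 1, and with all 4 averaged the log2 fold change was 0.06.

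Markers of granule-bearing cells differed from list to list. Of 6 mature neutrophil markers 0 rose and Mmp8 fell, and their summed level ran from 13.90 to 13.92 in mimic arrays and from 13.60 to 13.86 in control arrays on the log2 scale. Of 4 measured neutrophil precursor markers (Elane, Mpo, Prtn3 and Ctsg) 2 rose, and their summed level ran from 12.34 to 12.36 in mimic arrays and from 10.96 to 11.73 in control arrays on the log2 scale, lowest on control array 1. Of 5 mast cell and basophil markers 2 rose, Cpa3 and Fcer1a, with summed levels from 9.45 to 9.60 in mimic arrays and from 8.23 to 9.11 in control arrays, again lowest on control array 1. The 4 megakaryocyte markers, of which 0 passed (limma; 3 at an unadjusted p under 0.05), had summed levels of 10.03 to 10.26 and 9.72 to 9.89 in the same groups. Their part in the Rab27 values was not tested. Among the other granule Rabs, Rab44, a large Rab of mast cells and other leukocytes, read 5.86 ± 0.02 in mimic arrays and 5.88 ± 0.14 in control arrays, with a 95% interval of the log2 fold change from -0.25 to 0.21. The log2 fold changes of Rab3a, Rab3b, Rab3c, Rab3d, Rab26 and Rab37 lay between -0.13 and 0.08, but Rab3b, Rab3c and Rab26 had means below 1, near the floor. The other probe set of Rab37, of a similar signal, had groups apart (log2 difference 0.60 ± 0.25, adjusted p = 0.326 by limma over all probe sets), against 0.002 for the brighter one.

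Rab32 and Rab38, close relatives that build lysosome-related organelles such as melanosomes, did not have the same values. Rab32 read 6.33, 6.24 and 6.08 on the mimic arrays and 5.81, 6.37 and 6.43 on the control arrays, with a log2 fold change of 0.01 ± 0.17. Rab38, the gene of the chocolate coat mutation, read 3.58, 3.69 and 3.09 on the mimic arrays and 2.59, 2.92 and 3.29 on the control arrays (log2 difference 0.52 ± 0.21, adjusted p = 0.272 by limma). Its groups overlapped, though those of its dimmer probe set did not (log2 difference 0.88 ± 0.28). The difference between the pair was not tested.

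Of the members outside these compartments, Rab28, a cilium and photoreceptor Rab, read 5.66, 5.82 and 5.51 on the mimic arrays and 4.84, 5.26 and 5.43 on the control arrays. The groups were apart by a narrow margin, and the difference did not pass (log2 difference 0.49 ± 0.16, adjusted p = 0.179 by limma; 0.32 without control array 1). A dimmer probe set of Rab28 had the same sign (0.72 ± 0.28) and groups apart. Rab23, which restrains Hedgehog signalling, was dim, at 2.49 ± 0.08 in mimic arrays and 2.12 ± 0.05 in control arrays (adjusted p = 0.0837 by limma), and passed with array weights (adjusted p = 0.0424). With its probe sets averaged the log2 fold change of Rab23 was 0.10, but its dimmer probe sets had means of 0.76 and 0.37, near the floor.

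Control array 1 stood low for this family. Among the 27 Rab genes averaging at least 5 it was the lowest of the 3 control arrays in 20, or 74.1%, and the median deviation from the control mean was -0.09, against 0.06 and 0.07 for control arrays 2 and 3. Over all 4093 genes of that level it was the lowest in 47.8%, with a median deviation of -0.01. Among the mimic arrays, array 3 was the lowest in 17 of the 27, with a median deviation of -0.05, against 43% of all 4093 genes and a median deviation of -0.01. The dendritic cell markers, of which 4 of 6 fell, were highest on control array 1, at a summed level of 11.23 against 10.60 and 10.18 on control arrays 2 and 3, and 8.92 to 8.95 on the mimic arrays. The part of this cell mixture in the Rab values was not tested.

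**Figure D3:**
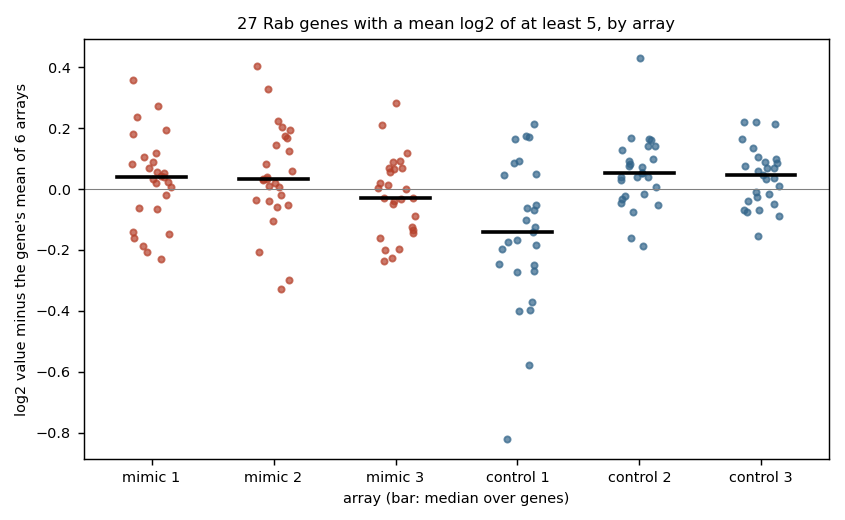
Log2 value of each of 27 Rab GTPase genes whose mean log2 was at least 5, minus that gene's mean over the 6 arrays (y axis), for the 3 mimic arrays (red) and the 3 control arrays (blue). Bars are medians over genes; the points of control array 1 reach lowest, and it is the lowest of the control arrays for 20 of the 27 genes.

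Probe sets of the same Rab gene did not always tell the same story. In a fit of all 34945 probe sets with 1 gene symbol, 0 of the 132 Rab probe sets passed (limma; 26 at an unadjusted p under 0.05, lowest adjusted p = 0.0815). Of 12 genes with more than 1 probe set at a mean log2 of at least 3, the signs were alike in 7 (Rab1a, Rab7, Rab11a, Rab14, Rab18, Rab24 and Rab28) and mixed in 5 (Rab2a, Rab3d, Rab6a, Rab10 and Rab22a). Some dimmer probe sets of Rab6a and Rab14, but not all of those of Rab14, varied far more between arrays than the brightest did. One of Rab6a read 4.26, 5.13 and 4.52 on the mimic arrays and 4.06, 5.91 and 6.13 on the control arrays, and one of Rab14 read 4.33, 5.00 and 4.53 on the mimic arrays and 4.64, 6.22 and 6.12 on the control arrays. In both, control arrays 2 and 3 were the high ones and control array 1 lay with the mimic arrays. Another Rab14 probe set had the groups apart and lower (log2 difference -0.33 ± 0.11). The Affymetrix 3′ and 5′ probe sets of actin, a measure of how complete the labelled RNA is, differed by 1.85, 2.39 and 1.64 on mimic arrays 1, 2 and 3 and by 1.64, 1.81 and 1.79 on control arrays 1, 2 and 3, with mimic array 2 the highest. For Gapdh the same difference was 0.83 on mimic array 2 and between 0.24 and 0.37 on the other arrays. The part of RNA quality in these values was not tested.

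**Figure D4:**
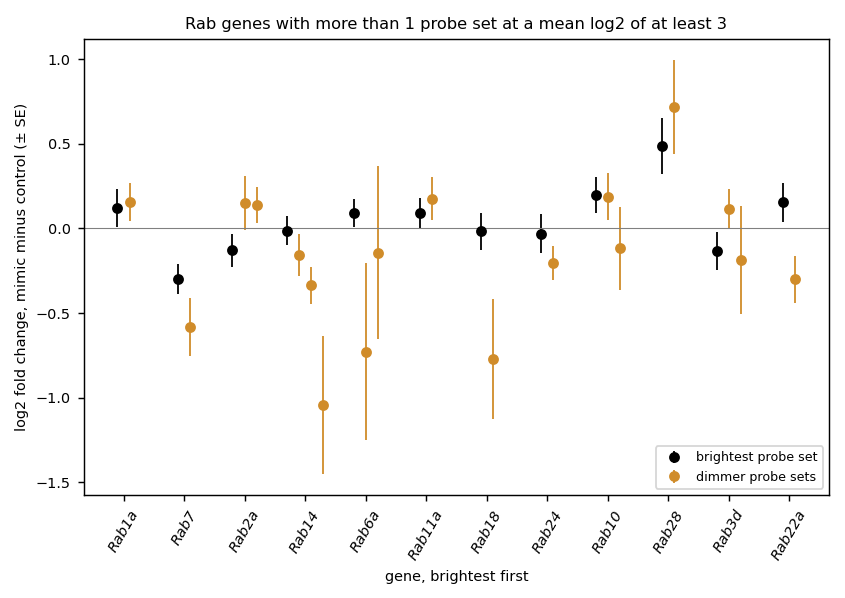
Log2 fold change (mimic minus control, ± SE from limma, y axis) of every probe set with a mean log2 of at least 3 for the 12 Rab genes that have more than 1 such probe set, ordered by the level of the brightest probe set. Black marks the brightest probe set of a gene and orange the dimmer ones; those of Rab7 and Rab28 lie on the same side of 0, while a dimmer probe set of Rab14 lies at -1.04 with a wide error.

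Promoters of the family were searched for a pair of motifs, chosen after the values were seen, on both strands of the RefSeq windows (GRCm38.p6) around each gene start. Of the 59 members 48 matched a window. The motif CACGTG, the E-box core read by lysosomal and growth regulators of the bHLH class, occurred in 6 of the 48 (12.5%), against 8.09% of 27025 genes. The interferon-type motif (GAAA, any 2 bases, GAAA) occurred in 1 of the 48, Rab19, against 3.99% of genes. The windows below show the E-box in capitals for the members whose values are described here.
Rab20, chr8:11478669-11478698, minus strand: cggccgggcaccCACGTGgtcgcagggctg
Rab27a, chr9:73063898-73063919, plus strand: cttgCACGTGctcctccgtctg
Rab23, chr1:33719666-33719695, plus strand: cttcagtgctacCACGTGagtctcaggtgg
Rab21, chr10:115315604-115315633, minus strand: gcccaccgcggtCACGTGacgaggggtgtg
Rab24, chr13:55321961-55321990, minus strand: cggcgcccgcgtCACGTGaccgggcgtccc
Rab5a, chr17:53478987-53479016, plus strand: aattggagaagaCACGTGacgcaaccccac
Rab5a held a further copy. The log2 fold changes of these genes were 0.57 for Rab20, 0.58 for Rab27a, 0.37 for Rab23, 0.12 for Rab21, -0.03 for Rab24 and -0.003 for Rab5a, so genes with the motif lay both near 0 and among the larger differences. Rab19 had a log2 fold change of 0.31 ± 0.15. A match describes letters only and does not show binding.

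Genes that work on Rab proteins were examined by the same fit. Of 141 listed exchange factors, GTPase-activating proteins, effectors and other partners 132 were measured, and 3 rose and 4 fell, where 1.17% of all genes rose and 1.59% fell. The median log2 fold change of the 132 was -0.01. Without control array 1 there were 3 such genes (Dennd1a, Dennd3 and Rilpl1), without control array 3 there were 2 (Dennd1a and Rilpl1), and with any of the other 4 arrays left out there were 0, fits in which at most 65 of all genes passed.

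Rilpl1 (Entrez gene 75695), whose product binds Rab8 and Rab10 near the centrosome and cilium, was the effector that rose. It read 2.56, 2.51 and 2.28 on the mimic arrays, against 1.28, 1.37 and 1.59 on the control arrays. It was dim in both groups, and 2.05-fold higher with the mimic (log2 difference 1.04 ± 0.12, adjusted p = 0.011 by limma). With its probe sets averaged the log2 fold change was 0.52. The other 48 measured effectors did not pass. Of the 49, 14 (28.6%) had an unadjusted p under 0.05 (limma), against 17% of all genes and 29.7% of those at a level of at least 5. Among the 48, named after its values were seen, the early endosome tether Eea1 had groups apart (log2 difference -0.40 ± 0.12, adjusted p = 0.147 by limma).

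Among 33 measured exchange factors 1 rose and 1 fell, where 1.17% of all genes rose and 1.59% fell. Of the 33, 15 (45.5%) had an unadjusted p under 0.05 (limma), against 17% of all genes and 29.7% of those at a level of at least 5. The median level of the 33 was 4.15, against 1.99 for all genes. Dennd1a (Entrez gene 227801), which loads Rab35 at clathrin-coated pits, read 4.37, 4.32 and 4.13 on the mimic arrays and 3.34, 3.56 and 3.69 on the control arrays, a 1.67-fold difference (log2 difference 0.74 ± 0.12, adjusted p = 0.0238 by limma). Dennd3 (Entrez gene 105841), which loads Rab12, read 4.44, 4.38 and 4.44 on the mimic arrays and 4.98, 4.94 and 4.97 on the control arrays, and fell by 0.54 on the log2 scale (adjusted p = 0.0202 by limma). Arrays within each group lay very close for Dennd3. Rab35 itself had overlapping groups, at 6.01 ± 0.14 in mimic arrays and 6.14 ± 0.10 in control arrays, and Rab12 had a log2 fold change of -0.31 ± 0.10 that did not pass (adjusted p = 0.158 by limma).

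Of 34 measured GTPase-activating proteins 1 rose and 3 fell, where 1.17% of all genes rose and 1.59% fell. An unadjusted p under 0.05 (limma) was found for 5 of the 34 (14.7%), against 17% of all genes and 29.7% of those at a level of at least 5. The groups were apart in 7 (20.6%), against 22.2% of all genes and 41.3% of those at a level of at least 5. Those 7 include the 4 that passed. The median level of the 34 was 3.93, against 1.99 for all genes. Rabgap1l, a TBC-domain protein, read 4.16, 4.17 and 3.99 on the mimic arrays and 3.53, 3.57 and 3.48 on the control arrays (log2 difference 0.58 ± 0.09, adjusted p = 0.0238 by limma). Tbc1d10a, which acts on Rab27a and Rab35, read 3.21, 3.04 and 3.15 on the mimic arrays and 3.85, 3.59 and 3.71 on the control arrays (log2 difference -0.59 ± 0.10, adjusted p = 0.0297). Tbc1d4, the GTPase-activating protein that governs Rab10 in glucose transporter traffic, fell by 0.53 on the log2 scale (adjusted p = 0.0331 by limma), at 2.84 ± 0.12 in mimic arrays and 3.37 ± 0.04 in control arrays. Tbc1d2b, a relative of the Rab7 regulator Tbc1d2, was the brightest of the 4, at 5.48 ± 0.08 in mimic arrays and 5.96 ± 0.03 in control arrays (log2 difference -0.48 ± 0.09, adjusted p = 0.0353). With all probe sets averaged, Rabgap1l, Tbc1d4 and Tbc1d10a did not pass.

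In the general machinery of the cycle no gene passed, where 2.76% of all genes did, a share at which so short a list can hold none. Among the 7 measured genes the groups were apart in 2, both lower (28.6%, against 22.2% of all genes). Of 7 measured genes for prenylation, escort and extraction 0 passed (limma; 1 at an unadjusted p under 0.05), and Rabggta, a subunit of the enzyme that attaches the lipid tails, had the largest difference at -0.38 ± 0.09 (adjusted p = 0.0873 by limma). Gdi2, the inhibitor that extracts Rab proteins from membranes, stood at 9.14 ± 0.16 in mimic arrays and 9.18 ± 0.06 in control arrays, and was also named after its values were seen. Of 9 Rab-like GTPases and Rab kinase genes 0 passed (2 at an unadjusted p under 0.05), and the phosphatase gene Ppm1h, whose product removes the phosphate that LRRK2 places on Rab proteins, had the largest difference (0.37 ± 0.11, adjusted p = 0.145 by limma).

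**Figure D5:**
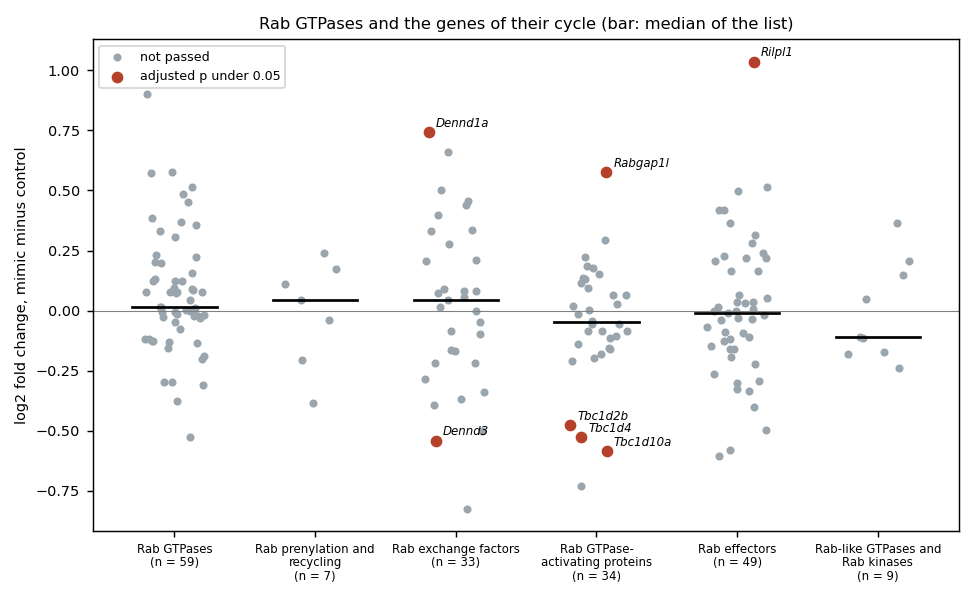
Log2 fold change (mimic minus control, y axis) of the 59 Rab GTPase genes and of 132 genes of their cycle in 5 lists, 1 point per gene, with the median of each list as a bar. Red points passed an adjusted p of 0.05 by limma: Rilpl1, Dennd1a and Rabgap1l lie above 0, and Dennd3, Tbc1d2b, Tbc1d4 and Tbc1d10a below it, while no Rab GTPase gene is marked.

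Of 7 listed myeloid markers 4 were measured. Ptprc, Csf3r, Cd33 and Itgam had means of at least 5 in both groups, and S100a8 and S100a9 were near the top of the arrays. Of these 4 myeloid markers Itgam fell (5.41 ± 0.15 in mimic arrays, 6.60 ± 0.33 in control arrays), as did Mmp8 among 6 mature neutrophil markers and Csf1r among 5 macrophage markers. Markers of B cells had summed levels of 5.85 to 6.10 in mimic arrays and 6.21 to 6.82 in control arrays, and of the 3 measured Ms4a1 fell. T and NK cell markers stood at 5.19 to 5.38 and 3.81 to 4.56 in the same groups; 0 of the 4 passed (limma; 1 at an unadjusted p under 0.05). Nkg7 carried that difference, at 4.92 ± 0.14 in mimic arrays and 3.29 ± 0.79 in control arrays, while Cd3e stood at 2.20 ± 0.14 and 2.28 ± 0.14, and Cd3g was below 1. Erythroid markers stood at 1.82 to 2.08 and 1.60 to 2.15, with Hba-a1 below 1.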

How the data were processed

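The authors deposited 1 log2 value per probe set and array. Per the submitters' processing notes the tools included RMA and affy; neither a version nor a role is stated. The deposited values run from -0.39 to 12.29, more than a natural log of 16-bit scanner intensities could reach (11.09), so base 2 was taken from the values; centring and floor remain unknown. Array medians were 0.89, 0.88 and 0.91 (mimic) and 0.92, 0.84 and 0.88 (control), and Pearson correlations between arrays were 0.982 to 0.996. The number of arrays limits the precision.

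Of 45101 probe sets, 34945 had 1 gene symbol, 932 several, 9160 none listed and 64 were controls. Symbols were updated through gene identifiers to RefSeq (34741 matched). Each of 18193 genes was read through its brightest probe set and tested with limma 3.58.1 in R 4.3.3 (lmFit, eBayes, two-sided, no covariate), with Benjamini-Hochberg adjustment at 0.05. The method was tested on simulated data. Members and lists were chosen with earlier results of these data known. Named genes were members at an adjusted p under 0.05, the 8 largest differences at a level of at least 5, the 6 highest levels, and Rab32 with Rab38; in the other lists, up to 4 genes that passed or else the largest difference. Summed marker levels are the log2 of summed linear values. A log2 difference is the mean of the mimic arrays minus that of the control arrays, the same quantity as the log2 fold change. Alternatives were each array left out, the replicate block, other probe set rules, dim-gene filters, variance models and normalisations.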

Additional observations from a re-analysis of the deposited data

How the results depend on the processing

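Over all genes, 503 passed with every array; leaving out 1 array gave 0 to 413 (0 without mimic array 1, mimic array 3 or control array 2, and 65 without mimic array 2). Fitting all probe sets gave 295 and array weights 1047. The 0 Rab genes (limma; 16 at an unadjusted p under 0.05) remained 0 with any 1 array left out and with all probe sets fitted. The count was 1 with probe sets averaged (Rab20, which has only 1 probe set). It was 1 without genes below a mean log2 of 3 (Rab20, where 9.24% of the tested genes passed) and 2 without genes below 5 (Rab7 and Rab29, where 15.7% passed). It was 2 with a trended robust variance (Rab7 and Rab27b), 4 with array weights (Rab12, Rab20, Rab23 and Rab27b), 1 with centred arrays (Rab27b) and 3 after quantile normalisation (Rab13, Rab20 and Rab27b). The filters test fewer genes and fit the variances anew on those genes. The cause of the changed counts was not tested for any setting. The 7 regulators became 0 to 3 with 1 array left out, 4 with all probe sets fitted and 15 with array weights.

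Same-numbered arrays of the groups did not deviate together (correlations -0.10, 0.25 and -0.19), so the numbers were not taken as pairs. With the replicate block 314 genes, 0 Rab genes and 1 regulator (Rilpl1) passed.

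Over all 59 Rab genes, the sign turned in 9 with probe sets averaged, 7 with array weights, 2 with centred arrays, 5 after quantile normalisation and 4 to 10 with 1 array left out. The values that follow are of the 35 Rab genes followed singly. Averaging probe sets gave log2 fold changes of 0.15 for Rab2a, -0.26 for Rab6a, 0.0084 for Rab8a and -0.31 for Rab31, and outside the 35 it also turned Rab2b, Rab3a, Rab3c, Rab4a and Rab22a. Array weights gave -0.051 for Rab31 and -0.089 for Rab32, centring gave -2.7e-04 for Rab32, and quantile normalisation gave 0.0019 for Rab14, 7.3e-05 for Rab24 and 0.0058 for Rab44. With 1 array left out, the values ran from -0.042 to 0.025 for Rab14, -0.092 to 0.041 for Rab18, -0.045 to 0.22 for Rab21, -0.12 to 0.034 for Rab24, -0.069 to 0.069 for Rab31, -0.19 to 0.12 for Rab32, -0.061 to 0.058 for Rab44 and -0.13 to 0.11 for Rab5a. With 3 arrays a group and no known separate cultures, the sign of a small difference is uncertain. The genes just listed with 1 array left out all have a mean log2 of at least 5, so this is not confined to dim genes. The part of signal over background in dim genes was not tested.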
